A study of Mus musculus with 36 samples.

Results

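The genes described here encode the proteasome, its regulators and its assembly chaperones in mouse liver. They were taken from the deposited gene counts as the protein-coding genes whose names start with Psm, a letter from a to g and a digit, with at least 100 counts summed over the 36 libraries. The names alone matched 50 protein-coding genes, 49 of which reached the minimum, among 17994 genes that did so and 54532 genes in the counts. The remaining gene was Psmb11, the catalytic subunit of the thymus, with 2 counts in 2 libraries.

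Livers came from male mice, 2 to 3 months old, on the C57Bl/6NCrl background, housed in 12 h light and 12 h dark with chow ad libitum. Controls carried 1 intact allele of Thrb, the gene of thyroid hormone receptor beta (THRB+/-, named THRB WT by the study), and knockouts carried none for either receptor isoform (THRB-/-, THRB KO). In each genotype 3 mice, lettered a to c, were culled at each of 6 zeitgeber times (ZT2, ZT6, ZT10, ZT14, ZT18 and ZT22, in h after lights on), which gives 18 libraries per genotype. The allele is absent from the whole body, and no group with both alleles intact was analysed here.

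The proteasome degrades proteins tagged with ubiquitin. Its 20S core is a barrel of alpha rings (Psma genes) around beta rings (Psmb genes), and its 19S cap, of ATPases (Psmc) and non-ATPase subunits (Psmd), recognizes, unfolds and feeds in the substrate. Interferon-inducible catalytic subunits (Psmb8, Psmb9 and Psmb10) can take the places of the constitutive ones (Psmb5, Psmb6 and Psmb7) to form the immunoproteasome, which favours peptides for antigen presentation. The activator PA28 (Psme1 and Psme2) is also interferon-inducible. Sorted by role, the 49 genes held 7 alpha ring genes, 4 non-catalytic, 3 constitutive catalytic and 3 inducible catalytic beta genes, 6 ATPases, 11 non-ATPase cap subunits, 5 activators or inhibitors (Psme1 to Psme4 and Psmf1), 4 chaperones of the core (Psmg1 to Psmg4) and 3 chaperones of the cap (Psmd5, Psmd9 and Psmd10). The last 3 were Psma8, an alpha subunit of the testis, Psme2b, an intronless copy of Psme2, and Psmc3ip, a meiotic recombination factor named for binding Psmc3 and not a subunit.

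In THRB WT the largest 24-h rhythms among the constitutive subunits belonged to Psmd11, a scaffold subunit of the cap that supports its assembly with the core, and to Psmd14, the cap's deubiquitinase, and their promoters are shown for that reason. Each is the 250 bases before the gene's annotated start (RefSeq, GRCm38.p6, forward strand), Psmd11 at chr11:80428365-80428614 and Psmd14 at chr2:61711444-61711693. Capitals mark a match to a searched motif.
Psmd11: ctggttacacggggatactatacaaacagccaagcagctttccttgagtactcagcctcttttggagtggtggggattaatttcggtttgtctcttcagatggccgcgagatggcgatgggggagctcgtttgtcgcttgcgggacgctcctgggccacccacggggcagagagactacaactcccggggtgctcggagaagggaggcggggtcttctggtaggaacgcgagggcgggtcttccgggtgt
Psmd14: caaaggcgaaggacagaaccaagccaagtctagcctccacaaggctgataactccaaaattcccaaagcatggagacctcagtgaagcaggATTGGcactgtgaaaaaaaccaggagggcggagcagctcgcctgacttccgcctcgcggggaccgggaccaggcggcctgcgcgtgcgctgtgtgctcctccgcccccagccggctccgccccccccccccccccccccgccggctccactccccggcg
The capitals in the Psmd14 promoter are CCAAT on the reverse strand, 159 bases before the start. No searched motif was found in the Psmd11 window. Promoters were at hand for 41 of the 49 genes, and 5 motifs were searched on both strands in 250 bases before and 50 after the start. CCAAT was held by 14 of the 41 (34.1%), beside 41.1% of the promoters of 27025 genes. TGACNNNGC, of the antioxidant type bound by Nfe2l1 and Nfe2l2, was in 6 (14.6%, all genes 14%), TTCNNNGAA in 3 (7.32%, all genes 9.55%) and the E-box CACGTG in 4, Psmb10 among them (9.76%, all genes 8.09%). The interferon response type GAAANNGAA was in 7 (17.1%, all genes 9.76%), namely Psmb3, Psmb4, Psmc2, Psmd4, Psmd9, Psme1 and Psmg4. The inducible Psmb8, Psmb9 and Psmb10, also searched, did not hold it. These are matches of letters only.

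Across the series, libraries held 29063273 to 42530551 counts (median 33540565 in THRB WT and 34190848 in THRB KO), and values are given as CPM, counts scaled to library size. Thrb itself stood at 28.9 ± 3.69 CPM in THRB WT and 31.5 ± 2.70 in THRB KO (SD, n = 18 each, edgeR adjusted p = 0.309). Counts over the whole gene do not resolve the altered exon, so they check no label. Of the liver cell markers, 6 hepatocyte genes, led by Alb, summed to 63469 to 89136 CPM in THRB WT and 73005 to 96011 in THRB KO, and 11 genes of other leukocytes to at most 19.9. Of the 43 genes of 6 marker lists, 0 were called by genotype in edgeR (6 at an unadjusted p of 0.05, beside 12.1% of all genes) and 1 in DESeq2, the monocyte receptor gene Ccr2, higher in THRB KO. The 9 Kupffer cell genes summed to 233 to 762 CPM in THRB WT and 245 to 474 in THRB KO (9 of 9 lower in THRB KO, median log2 difference -0.07), and the 5 cholangiocyte genes to 34.2 to 63.6 and 27.2 to 51.4 (5 of 5 lower, -0.19). Their part in the differences of Psme1, Psmb8 and Psmb9 by genotype was not tested. Endothelial and stellate lists had medians of 0.03 and 0.05.

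Core subunits had the highest median level per length of transcript, with wide overlap between roles. Levels were divided by the length of the gene's coding transcript, giving CPM per kb, as the mean of 36 libraries. The 14 constitutive core genes ran from 27.3 CPM per kb for Psma2 to 160 for Psmb6, which carries the caspase-like activity, with a median of 76.7, and Psma2 and Psma3 (31.9) lay below all 6 cap ATPases. By this length the inducible catalytic genes were lower than their constitutive counterparts. Psmb8 stood at 15.1 beside 77.4 for Psmb5 (both chymotrypsin-like), Psmb9 at 13.1 beside 160 for Psmb6, and Psmb10 at 30.2 beside 66.1 for Psmb7 (both trypsin-like). Cap ATPases lay between 34.2 (Psmc6) and 78.4 (Psmc1), and the other cap subunits between 26.1 (Psmd1, the largest scaffold) and 83.2 (Psmd4, a ubiquitin receptor).

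Among the activators, Psme1 and Psme2 stood at 82.7 and 64.7 CPM per kb, above the nuclear activator Psme3 at 22.1, the PA200 activator Psme4 at 13.4 and the inhibitor Psmf1 at 8.13. The chaperones of the core reached 10.1 (Psmg3) to 19.4 (Psmg1), and those of the cap 6.69 (Psmd10) to 15.4 (Psmd9). Psma8 and Psmc3ip were near the lower limit, at 0.318 and 0.41. Among the 46 genes outside these 2 and Psme2b, the spread over libraries was smallest for the cap subunit Psmd6 (coefficient of variation 3.96%) and largest for Psmb9 (28.9%). Lengths of annotated transcripts need not be those used in liver. With the merged gene model as length, Psmb5 came to 77.4 and Psmb6 to 68.3 CPM per kb, and Psmb10 (23.2) was slightly above Psmb7 (22.4). The median of the ATPases (42.5) was then above that of the 14 core genes (41.1), so the order of subunits and of roles rests on the length chosen.

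The comparison of THRB KO with THRB WT asked whether loss of the receptor moved the abundance of proteasome transcripts over the whole day. With sampling time in the model, 1 of the 49 genes passed an adjusted p of 0.05 in edgeR's quasi-likelihood test, beside 0.950% of all genes tested (0.445% lower in THRB KO). That gene was Psme1, which encodes the alpha subunit of PA28. Its lowest, median and highest levels were 74.1, 99.3 and 114 CPM in THRB WT and 74.0, 84.9 and 106 in THRB KO, so the ranges overlapped. The means were 97.7 ± 10.6 and 86.1 ± 9.61 CPM (SD, n = 18 each). The fold change on the log2 scale was -0.18, with a standard error of 0.0448 (adjusted p = 0.0323). In bulk liver, fewer cells of a type and less RNA per cell cannot be told apart.

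By time, the libraries a, b and c of THRB WT held 103, 87.5 and 101 CPM of Psme1 at ZT2, 109, 105 and 87.2 at ZT6, and 112, 88.3 and 111 at ZT10. Those of THRB KO held 88.5, 78.1 and 91.3 at ZT2, 94.2, 80.5 and 77.4 at ZT6, and 106, 85.0 and 104 at ZT10. In these daytime samples the means of THRB KO were lower each time, while individual livers overlapped at all 3 times. In the dark phase THRB WT held 101, 89.6 and 98.4 CPM at ZT14, 100, 90 and 114 at ZT18, and 98.0, 74.1 and 89.7 at ZT22. THRB KO held 94.0, 84.9 and 82.8 at ZT14, 80.9, 85.4 and 94.8 at ZT18, and 74.2, 74.6 and 74.0 at ZT22. The mean was thus lower in THRB KO at 6 of 6 times, with overlap at each.

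**Figure D1:**
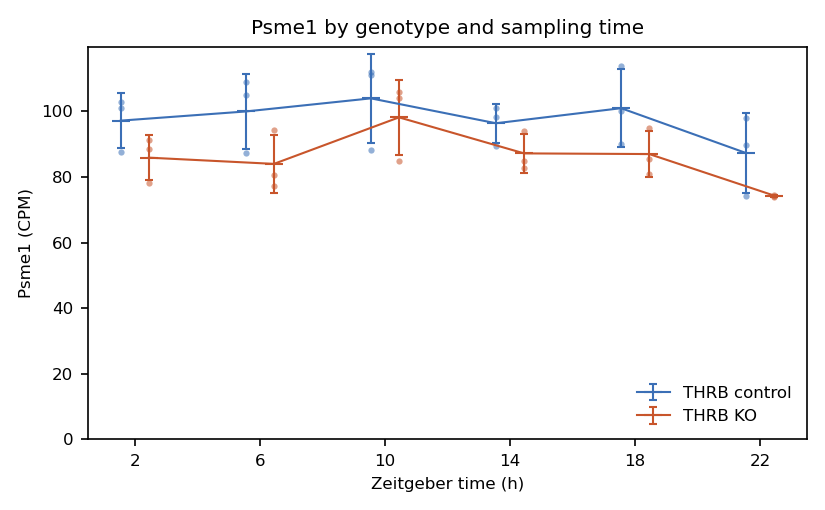
Psme1 in CPM (y axis, from 0) against zeitgeber time in h (x axis). Small points are single livers, crosses and bars the mean ± SD of 3 livers, blue for THRB control and orange for THRB KO. THRB KO means lie below control means at all 6 times, with 74.0 to 74.6 CPM in THRB KO at ZT22.

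The call of Psme1 was not held by every setting. Over 11 alternatives, 7 of which called it, the log2 fold change ran from -0.21 to -0.12 and the adjusted p from 0.00108 to 0.433. It was lost without the mice lettered a (adjusted p = 0.433), without those lettered c (0.282) and with sampling times pooled (0.205). Psme1 lies on chromosome 14 (GRCm38, 55578123 to 55581529, forward strand), as Thrb does, at a distance of 37.5 Mb. Emc9, a gene on the other strand, shares 14 bases with it and stood at 31.4 CPM in THRB WT and 27.0 in THRB KO (log2 fold change -0.22, edgeR adjusted p = 0.0957). The libraries kept no strand. The partner subunit Psme2, from the same PA28 ring and also 37.5 Mb from Thrb, gave a log2 fold change of -0.06 (adjusted p = 0.749). The member closest to Thrb, Psmd6 at 3.54 Mb, gave 0.00 (adjusted p = 0.973).

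The other 48 genes were not called by genotype. Of all 49, 36 were lower in THRB KO, with a median log2 fold change of -0.034, beside 50.5% lower and a median of -0.001 over all genes. At an unadjusted edgeR p of 0.05, 7 genes were lower and 0 higher (background 5.96% and 6.09%), namely Psme1, the core subunits Psmb3, Psmb6 and Psma7, the ATPases Psmc3 and Psmc4, and the chaperone Psmg3. Psmb6 held 112, 136 and 158 CPM (lowest, median and highest) in THRB WT and 103, 122 and 143 in THRB KO, a log2 fold change of -0.11 (SE 0.0502, adjusted p = 0.368). Psmb3, a non-catalytic subunit of the beta ring, held 79.2, 101 and 122 and 76.6, 92.4 and 104 CPM (-0.11, SE 0.0484, adjusted p = 0.348). Both pairs of ranges overlapped over most of their length.

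By role, the medians of log2 fold change were -0.025 for the alpha ring (5 of 7 lower), -0.047 for the non-catalytic beta genes (4 of 4 lower) and 0.010 for the constitutive catalytic genes (1 of 3 lower). They were -0.055 for the ATPases (5 of 6 lower) and -0.014 for the other cap subunits (6 of 11 lower). The core chaperones gave -0.072 (4 of 4 lower) and the cap chaperones -0.008 (2 of 3 lower). The inducible catalytic genes gave -0.152 (3 of 3 lower) and the activators and inhibitor -0.060 (4 of 5 lower). The largest positive value, 0.51, was that of Psma8, at 0.446 ± 0.251 and 0.632 ± 0.317 CPM (SD, n = 18 each, adjusted p = 0.441), a level at which single reads weigh on each value.

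**Figure D2:**
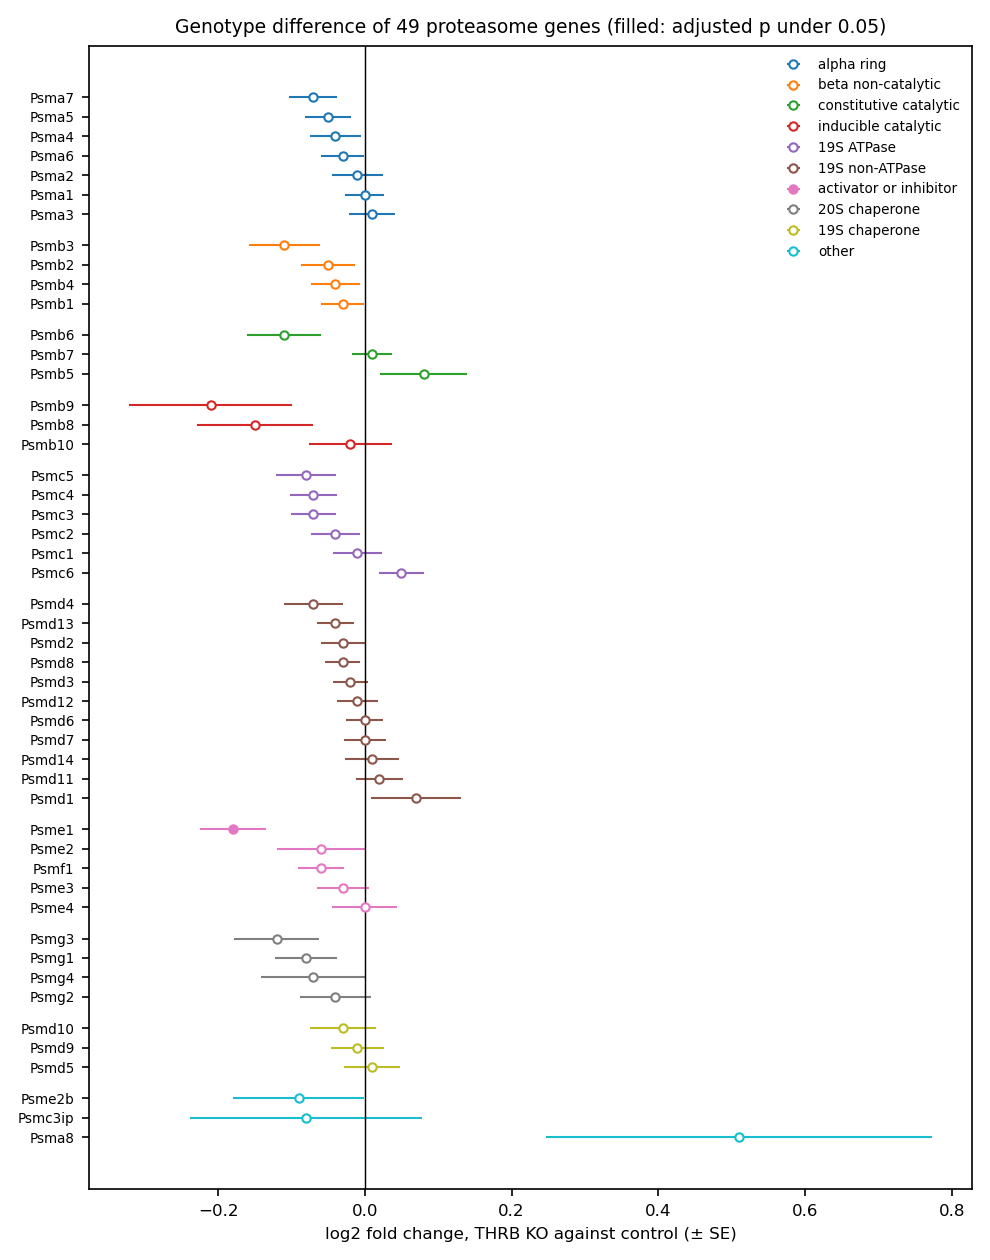
Log2 fold change of THRB KO against THRB control for the 49 genes (x axis, edgeR estimate with sampling time in the model), grouped by role on the y axis. Bars are ± 1 standard error and the filled point marks an adjusted p under 0.05. Most points lie left of 0 and within -0.21 to 0.08, with Psma8 apart at 0.51 and Psme1 the filled point at -0.18.

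At single times 0 of the 49 genes were called by edgeR or by DESeq2, and the edgeR background of calls was 0.0278% of genes at ZT2, 0.0111% at ZT6, 0.0167% at ZT10, 0.0167% at ZT14, 0.0222% at ZT18 and 0.0222% at ZT22. At an unadjusted edgeR p of 0.05 there were 4 of the 49 at ZT2 (all genes 5.43%), 2 at ZT6 (4.37%), 0 at ZT10 (4.12%), 2 at ZT14 (5.34%), 3 at ZT18 (5.36%) and 1 at ZT22 (4.73%). The counts of genes with a lower value in THRB KO were 35, 39 and 43 at ZT2, ZT6 and ZT22 (medians -0.069, -0.073 and -0.075), and 25, 23 and 24 at ZT10, ZT14 and ZT18 (medians -0.000, 0.016 and 0.004). The interaction of genotype with time called 0 of the 49 genes in edgeR, and 0 at an unadjusted p of 0.05, against 0.00% of all genes after adjustment and 2.69% before it. DESeq2 called 0 of the 49 for the interaction as well.

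Part of this spread moved with a property of the libraries. For each library a transcript length index was computed as the median log2 deviation of 489 genes with coding transcripts under 1000 bases minus that of 1448 genes with at least 5000 bases, leaving out the 49 genes. The index ran from -0.30 through a median of 0.07 to 0.30 in THRB WT and from -0.34 through -0.01 to 0.18 in THRB KO. The mean difference between genotypes was -0.25 at ZT2, -0.13 at ZT14 and at ZT22, and between -0.03 and -0.02 at ZT6, ZT10 and ZT18. Libraries of high index thus held more reads of short transcripts, and THRB KO livers had the lower mean.

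Several short genes followed this index closely. With group means removed, Pearson's r and Spearman's rho over 36 libraries were 0.95 and 0.93 for Psmb6, 0.95 and 0.92 for Psmb3 and 0.82 and 0.77 for Psme1, as a description with no test. Psmd1, whose coding transcript has 3112 bases, went the other way (r = -0.89, rho = -0.88), as did Psme4 with 6491 bases (r = -0.73, rho = -0.69). Without the 2 libraries farthest from the median index, r was 0.94, 0.95, 0.78, -0.89 and -0.70 for these 5 genes. Over the 49 genes r was above 0.5 in 22 and below -0.5 in 3. The median was 0.71 in the 26 genes with coding transcripts under 1500 bases and 0.28 in the other 23. The r was above 0.5 in 16 of the 26 and in 6 of the 23. The highest of these 6 was Psma2, at 2911 bases by its longest coding transcript (r = 0.92). The short core genes Psmb7 (1160 bases, r = -0.32), Psmb5 (899 bases, 0.18) and Psma1 (1201 bases, 0.17) did not follow the index closely.

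**Figure D3:**
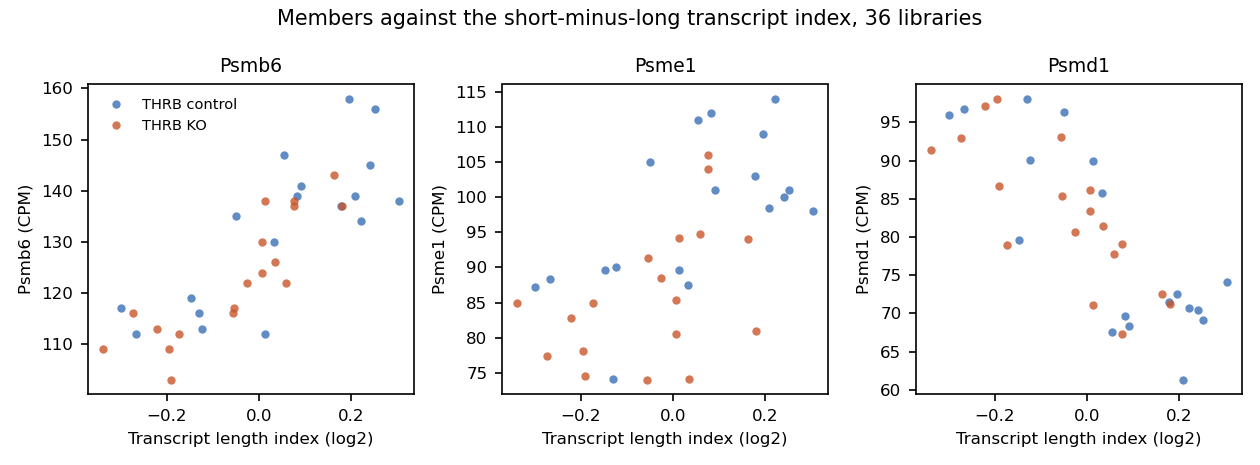
Psmb6, Psme1 and Psmd1 in CPM (y axes, not starting at 0) against the transcript length index of each library (x axes, log2). Points are the 36 livers, blue for THRB control and orange for THRB KO. Psmb6 and Psme1 are higher and Psmd1 is lower in libraries of high index, in both genotypes.

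When the index was added to the model as a covariate, an alternative chosen after the data were seen, 0 of the 49 genes were called by genotype in edgeR (3 at an unadjusted p of 0.05), beside 0.928% of all genes called and 9.96% at the unadjusted threshold. Psme1 then had a log2 fold change of -0.12 (edgeR adjusted p = 0.0649), 32 of the 49 genes were lower in THRB KO and the median was -0.011, against -0.004 for all genes. Psmb3 came to -0.03 and Psmb6 to -0.02. The part of RNA integrity or of library preparation in the index was not tested.

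The balance of inducible against constitutive catalytic subunits was compared within each library. Psmb8 held 17.1, 26.0 and 34.3 CPM (lowest, median and highest) in THRB WT and 18.9, 22.4 and 37.4 in THRB KO, a log2 fold change of -0.15 (SE 0.0791, adjusted p = 0.446). Psmb9 held 11.7, 17.4 and 36.5 and 9.63, 15.9 and 25.9 CPM (-0.21, SE 0.111, adjusted p = 0.464). Psmb10 held 27.1, 39.3 and 55.6 and 30.8, 37.4 and 52.1 CPM (-0.02, SE 0.0564, adjusted p = 0.933). With the length index as a covariate, Psmb8, Psmb9 and Psmb10 came to -0.06, -0.13 and 0.04 (edgeR adjusted p = 0.875, 0.798 and 0.873). The r with the index was 0.63 for Psmb8 and 0.18 for Psmb5, and 0.37 for Psmb9 and 0.95 for Psmb6. It was 0.57 for Psmb10 and -0.32 for Psmb7. A ratio within a library is thus not free of the index, and the ratios were not refitted with it. The ranges of the 2 genotypes overlapped in each of these genes, and the highest Psmb9 value, 36.5 CPM, came from a single THRB WT liver at ZT18 whose 2 companions held 17.3 and 17.5. Psmb9 also shares 212 bases with Tap1, the peptide transporter gene on the other strand, and Psmb7 shares 6571 with Nek6, so unstranded reads of these stretches may come from either gene.

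The log2 ratio of Psmb8 to Psmb5 counts was -1.85, -1.38 and -0.88 (lowest, median and highest) in THRB WT and -2.32, -1.67 and -0.71 in THRB KO. Its mean was lower by 0.23 in THRB KO (-1.39 ± 0.242 against -1.62 ± 0.425, SD, n = 18 each), lower at 5 of 6 times. A two-sided exact permutation test of genotype within times gave p = 0.0375, and 0.113 after adjustment over the 3 pairs, so this ratio did not pass. For Psmb9 to Psmb6 the means were -2.85 and -2.93 (exact permutation p = 0.521, adjusted p = 0.741), and for Psmb10 to Psmb7 they were -0.96 and -0.99 (exact permutation p = 0.741, adjusted p = 0.741). Per length of coding transcript, Psmb8 stood at 0.210 of Psmb5 in THRB WT and 0.179 in THRB KO. Psmb9 stood at 0.0818 and 0.0775 of Psmb6, and Psmb10 at 0.454 and 0.447 of Psmb7. With the gene model as length, Psmb10 was not below Psmb7 on average.

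The Psmb5 side of the first ratio could not be read on its own. A processed copy of Psmb5, Gm3375 on chromosome 7 (GRCm38, 3181093 to 3181888), is 98.9% identical to its coding sequence and took 42.4% as many counts. The share of Psmb5 in the sum of both fell into 3 levels that did not overlap. It was 61.4 to 64.3% in 22 livers (14 THRB WT and 8 THRB KO), 79.0 to 81.2% in 13 (4 THRB WT and 9 THRB KO), and 96.6% in 1 THRB KO liver at ZT22. Across these levels Gm3375 held 32.4 to 41.2, 16.9 to 22.4 and 3.3 CPM, and Psmb5 55.2 to 70.2, 67.2 to 91.7 and 95.4 CPM. The sum stayed within 84.9 to 114.1 CPM.

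**Figure D4:**
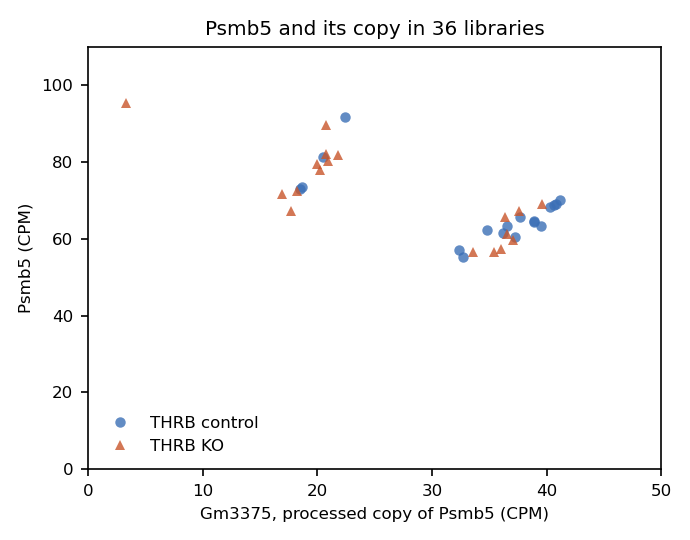
Psmb5 (y axis, CPM) against its processed copy Gm3375 (x axis, CPM) in the 36 livers, circles for THRB control and triangles for THRB KO. The points form 3 separate groups, 22 livers with 32.4 to 41.2 CPM of Gm3375, 13 with 16.9 to 22.4 and a single THRB KO liver at 3.3, with Psmb5 higher where Gm3375 is lower.

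The levels were unevenly spread over the design. All 6 THRB KO livers of ZT18 and ZT22 had the higher shares, while only 1 of the 6 THRB WT livers of those times did. The cause of the levels was not tested. With the 2 genes summed, an alternative chosen after the data were seen, the mean was 101.2 ± 7.77 CPM in THRB WT and 98.0 ± 7.01 in THRB KO (SD, n = 18 each), and the log2 fold change went from 0.08 (SE 0.0592, adjusted p = 0.614) to -0.04 (adjusted p = 0.687). The log2 ratio of Psmb8 to this sum averaged -1.99 in THRB WT against -2.09 in THRB KO (exact permutation p = 0.196, adjusted p = 0.588 over 3 pairs). Among other members with near-identical copies, Psma3 with Gm13835 was steadier, at a share of 65.5 to 69.5%. The share of Psme2 with Psme2b, 99.3% identical in coding sequence, ran from 61.7 to 79.0%. In all, 10 members had copies at 95% identity or more over at least 80% of the coding sequence. Of 16 such matches, 10 held at least 1% of the member's counts. Psme2 and Psme2b are each counted here as a copy of the other.

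The day-night comparison asked which proteasome genes follow a 24-h rhythm and whether the receptor changes it. In THRB WT 14 of the 49 genes passed the edgeR test of a 24-h sine and cosine, beside 35.1% of all genes. In THRB KO 11 did, beside 31.5%, and 9 passed in both, beside 24.5%. The shares, 28.6% and 22.4%, were under those of all genes in this fit and above them with the transcript length index as a covariate. Of the 7785 genes with a mean of at least 10 CPM, 3995 passed in THRB WT and 3597 in THRB KO in this fit. Rhythms were also shallow, with a median amplitude of 0.09 on the log2 scale in THRB WT and 0.08 in THRB KO, beside 0.21 and 0.20 over all genes and 0.15 and 0.14 over the 7785 genes with a mean of at least 10 CPM. The 9 shared genes were Psma5, Psma7, Psmb10, Psmc4, Psmd3, Psmd7, Psmd9, Psmd11 and Psmd14.

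The largest amplitude was that of Psmb10 in THRB KO (0.24) and that of Psmd11 in THRB WT. In THRB WT its livers a, b and c held 129, 145 and 141 CPM at ZT2, 135, 160 and 134 at ZT6, 93.0, 97.1 and 98.3 at ZT10, 91.4, 97.8 and 93.9 at ZT14, 93.5, 104 and 115 at ZT18, and 130, 137 and 128 at ZT22. In THRB KO they held 136, 139 and 139 at ZT2, 129, 134 and 129 at ZT6, 96.6, 99.0 and 107 at ZT10, 110, 101 and 109 at ZT14, 104, 108 and 116 at ZT18, and 126, 130 and 126 at ZT22. In both genotypes every liver of ZT2, ZT6 and ZT22 was above every liver of ZT10, ZT14 and ZT18. The amplitude came to 0.33 with a peak at 2.01 h in THRB WT (edgeR adjusted p = 5.4e-08) and 0.22 with a peak at 1.63 h in THRB KO (adjusted p = 5.2e-05). Its copy A730017L22Rik held 7.08% as many counts.

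Psmd14, the deubiquitinase that removes ubiquitin chains as the substrate enters, peaked earlier, at the end of the night. Its means in THRB WT rose from 39.0 ± 3.20 CPM at ZT10 to 54.8 ± 2.84 at ZT22 (SD, n = 3 each), and in THRB KO from 38.8 ± 1.46 to 51.3 ± 1.73. Amplitudes were 0.24 and 0.20 and peaks at 22.4 and 22.3 h (adjusted p = 2.3e-05 and 0.000401). Psmd3, a scaffold subunit of the cap lid, had its highest THRB WT livers at ZT6, with 141, 145 and 128 CPM, and its lowest mean at ZT14, with 103, 107 and 103. Its amplitude was 0.17 in THRB WT (peak 4.18 h, adjusted p = 2.1e-05) and 0.12 in THRB KO (peak 3.62 h, adjusted p = 0.00177).

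Of the alpha ring, 3 genes passed in controls and 2 in knockouts. Psma5 had an amplitude of 0.18 and a peak at 3.48 h in THRB WT (adjusted p = 8.2e-05) and of 0.15 at 5.06 h in THRB KO (adjusted p = 0.00121). Psma1 passed in THRB WT alone, with 0.15 at 2.72 h (adjusted p = 7.0e-05) beside 0.07 at 4.73 h in THRB KO (adjusted p = 0.0709). Passing in a single genotype does not show a difference, which was tested apart. Of the non-catalytic beta genes 0 of 4 passed in either genotype, and of the activators and inhibitor 0 of 5.

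Psmb10 was the inducible subunit with a rhythm in this fit, at another phase. Its livers held 48.7, 40.2 and 55.6 CPM at ZT10 and 35.3, 27.1 and 30.2 at ZT22 in THRB WT, and 52.1, 45 and 47.8 at ZT10 and 32.2, 36.8 and 31.3 at ZT22 in THRB KO, with no overlap between those times in either genotype. The amplitude was 0.29 with a peak at 12.4 h in THRB WT (adjusted p = 0.000888) and 0.24 at 11.3 h in THRB KO (adjusted p = 0.00652). Psmb8 and Psmb9 did not pass in either genotype (adjusted p = 0.870 and 0.216 in THRB WT, 0.0999 and 0.280 in THRB KO). Psmb5 passed in THRB KO (amplitude 0.22, peak 20.3 h, adjusted p = 0.0116) and not in THRB WT (adjusted p = 0.518). Summed with Gm3375 it no longer passed in THRB KO (adjusted p = 0.830).

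The cap chaperone Psmd9 passed in both genotypes (amplitudes 0.18 and 0.22, peaks 9.27 and 11.7 h). It shares 10921 bases of its gene span with Hpd on the other strand, an enzyme gene of tyrosine breakdown with 2193484 counts beside 49157 for Psmd9, and without strand a part of its counts may not be its own. The chaperone Psmd10, also known as gankyrin, passed in THRB KO alone (amplitude 0.17, peak 3.70 h, adjusted p = 0.0125, THRB WT adjusted p = 0.361).

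**Figure D5:**
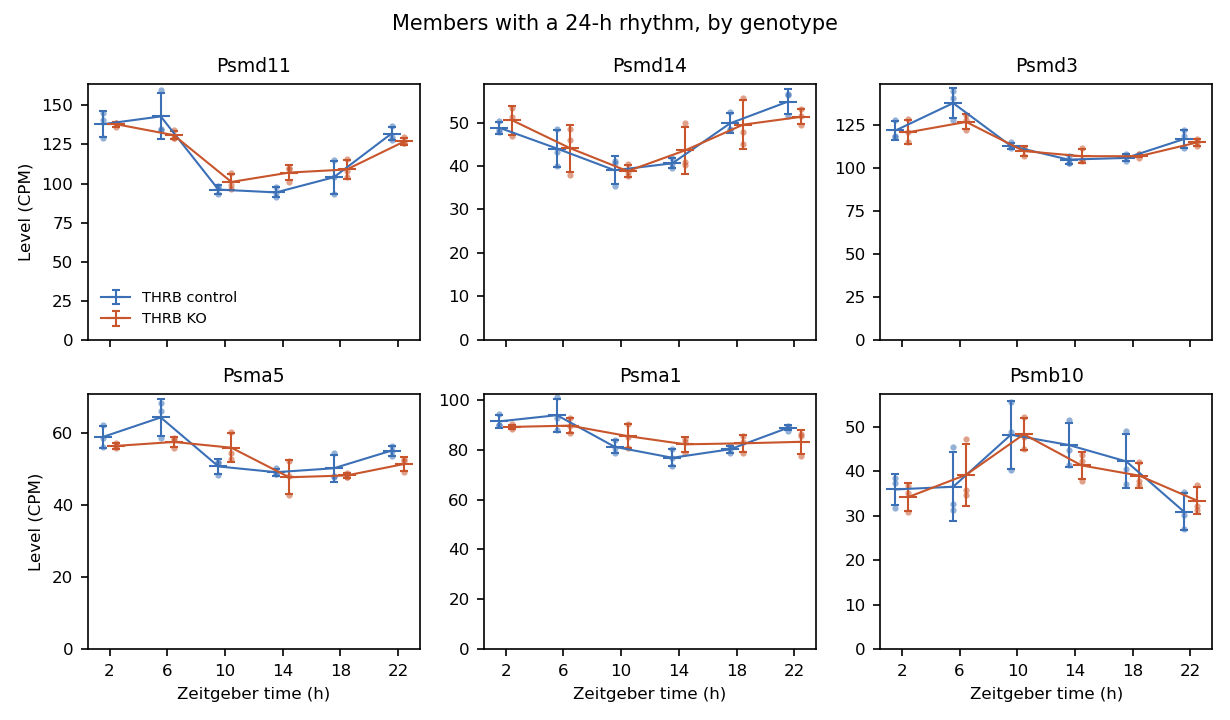
Levels in CPM (y axes, from 0) against zeitgeber time in h (x axes) for Psmd11, Psmd14, Psmd3, Psma5, Psma1 and Psmb10. Small points are single livers, crosses and bars the mean ± SD of 3 livers, blue for THRB control and orange for THRB KO. Psmd11, Psmd3, Psma5 and Psma1 are highest at ZT2 or ZT6, Psmd14 at ZT22 and Psmb10 at ZT10, in both genotypes.

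Peaks in THRB WT gathered in the first 6 h of light, with 9 of the 14 rhythmic genes between 0 and 6 h beside 22.0% of all rhythmic genes. In THRB KO 5 of 11 did, beside 20.9%. Among all 49 genes, passing or not, the highest mean in THRB WT was at ZT2 in 14 and at ZT6 in 22, and the lowest at ZT14 in 17. In THRB KO the highest was at ZT2 in 11, at ZT6 in 9 and at ZT10 in 12, and the lowest at ZT22 in 15. The fitted amplitude was lower in THRB KO in 33 of the 49 genes (67.3%, all genes 54.7%) and in 12 of the 16 that were rhythmic in either genotype (all such genes 58.6%). The edgeR test of the difference of rhythm called 0 of the 49 genes, with a background of 0.00%, and DESeq2 called 0 as well. At an unadjusted edgeR p of 0.05 there were 2, Psma1 and Psmb5 (3.07% of all genes), so no proteasome gene was shown to differ in amplitude or phase.

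More genes passed with the length index in the model. In THRB WT 29 of the 49 did (59.2%), including all 14 of the first count, beside 39.0% of all genes. In THRB KO 22 did (44.9%), including all 11, beside 35.6%, and 18 did in both genotypes (36.7%, all genes 27.7%). The shares were then above those of all genes. Of the 7785 genes with a mean of at least 10 CPM, 3995 (THRB WT) and 3597 (THRB KO) passed without the index. Their share with the index is not given here. In THRB WT 15 of the 29 peaks were between 0 and 6 h (all rhythmic genes 22.3%) and 10 between 6 and 12 h (29.2%). In THRB KO 8 and 11 of 22 were in these windows (20% and 30.7%). The genes added in both genotypes included the beta subunits Psmb1, Psmb3, Psmb4 and Psmb6, with amplitudes of 0.08 to 0.13 in THRB WT. Psme1 was also among them, with an amplitude of 0.13 and a peak at 9.71 h in THRB WT. The inducible Psmb8 was added in THRB KO (amplitude 0.25, peak 8.31 h, edgeR adjusted p = 0.011) and not in THRB WT (adjusted p = 0.365). The difference of rhythm again called 0 of the 49.

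The members also varied together between livers of the same genotype and time. With group means removed, the median r over 36 libraries was 0.60 for the 91 pairs of core subunits, 0.24 for the 136 pairs of cap subunits, and 0.59 for the 10 pairs among Psmb8, Psmb9, Psmb10, Psme1 and Psme2, beside 0.01 for all pairs of genes of at least 10 CPM. The closest pair was Psmb3 and Psmb6 (r = 0.96, rho = 0.95) and the most opposed Psmd1 and Psmb6 (r = -0.84, rho = -0.83). With the length index removed as well, the medians were 0.28, 0.37 and 0.27, so the core lost its lead over the cap. These values describe libraries that share depth and preparation, and no test was made of them.

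Other genes of the ubiquitin-proteasome system were described from a list of 40 tested genes. By genotype 0 of the 40 were called in edgeR (5 at an unadjusted p of 0.05, beside 12.1% of all genes) and 0 in DESeq2, 18 were lower in THRB KO and the median log2 fold change was 0.01. Values were -0.06 for the cap subunit Adrm1 (adjusted p = 0.527), -0.09 for the small cap subunit Sem1 (0.480), -0.12 for Pomp, which matures the core (0.342), and 0.10 for Nfe2l1, which drives proteasome genes when the proteasome is inhibited (0.299). The interferon-pathway factor Irf1 gave 0.15 (adjusted p = 0.485). A rhythm was called for 17 of the 40 in THRB WT (all genes 35.1%) and for 16 in THRB KO (31.5%). The ubiquitin shuttle Ubqln1 (amplitude 0.25 in each, peaks at 22.7 and 22.4 h) had a phase near that of Psmd14, and Tap1 passed in both genotypes (adjusted p = 0.0260 and 0.0330).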

How the data were processed

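Liver RNA-seq counts of 36 mice were used (poly-A, non-directional, paired-end libraries; HISAT2 on GRCm38/mm10 and featureCounts, without stated versions). The counts are raw counts per gene that the authors deposited. The annotation release and the treatment of reads that map to several genes were not given in the sources used here. Gene positions are those of the deposited counts.

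Genes with at least 100 counts over all libraries were fitted in edgeR 4.0.16 (R 4.3.3, TMM, quasi-likelihood tests, Benjamini-Hochberg over 17994 genes, threshold 0.05), with genotype and sampling time, with 12 group means, or with sine and cosine terms of 24 h per genotype. Amplitudes and peaks came from log2 CPM (prior count 2). Ratios used a pseudocount of 0.5 and exact permutation of genotype within times (scipy 1.17.1). The edgeR tests of genotype and of rhythm in each genotype were tried on simulated data with planted effects. No effect was planted for the interaction or the difference of rhythm, and the single-time tests and alternatives were not scored. Every library is a separate liver, and the labels do not say whether the letters a to c mark a litter or batch. The count headers hold a number per library, and these numbers lie close together in many same-letter pairs. What the numbers mean is not stated. Copies were found with blastn 2.17.0. limma 3.58.1 and DESeq2 1.42.0 served as alternatives. Named members were the catalytic subunits, activators and inhibitor, all called genes, the 5 smallest rhythm p in each genotype, the 3 largest and smallest fold changes, members within 20 Mb of Thrb and the highest and lowest level per role. Others named (Psmc3, Psmc4, Psmb1, Psmb4 and the copies) were picked from their values. The members and lists were chosen with earlier results of these data known. A gene of the related list is not reported here by name. The length index and the summing of copies were added after seeing the data.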

Additional observations from a re-analysis of the deposited data

How the results depend on the processing

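Of the genotype calls, Psme1 was the only one of the 49 genes and was kept with DESeq2, DESeq2 size factors, no filter, edgeR's filterByExpr, copies summed and the replicate block, whereas 0 genes were called with times pooled, 0 with the length index and 0 to 1 when the mice of a letter were left out. In THRB WT, rhythmic genes numbered 14, and 9 to 11 with a letter left out, 29 with the length index and 10 to 19 otherwise. In THRB KO they numbered 11, and 5 to 7 with a letter left out, 7 with 5 coefficients of sampling time, 22 with the length index and 9 to 13 otherwise. Fewer mice enter when a letter is left out, and the cause of the other changes was not tested. No alternative called any of the 49 genes at a single time, for the interaction or for a difference of rhythm.

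The letters were not taken as pairs, since the labels do not say what they mark and r of the deviations exceeded 0.1 in 9 of 18 same-letter pairs (-0.038 to 0.225, median 0.102). It was above 0 in 17 of these 18 and in 7 of 36 different-letter pairs, and 31 of 36 livers were closest to their own letter in the other genotype, a hint from the data. With group means removed, positive same-letter values push the different-letter values below 0, so these counts are not separate from each other. The length index averaged 0.13, -0.13 and -0.00 for letters a, b and c. Within same-letter pairs Psme1 was lower in THRB KO in 17 of 18 (adjusted p = 0.00108 with the block). With the replicate block the calls were 1 by genotype and, for rhythm, 18 (THRB WT) and 12 (THRB KO), and the ratio differences were -0.23 for Psmb8 to Psmb5 (exact sign-flip p = 0.0522), -0.08 for Psmb9 to Psmb6 and -0.02 for Psmb10 to Psmb7. With a letter left out the last ran from -0.11 to 0.03.

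Over 31 named genes, 312 alternative fold changes kept their sign and side of the threshold, 4 lost the call, all of Psme1, and 24 changed sign, none of a called gene. With the length index these were Psmb7 (-0.00), Psmb10 (0.04), Psme2 (0.02), Psme4 (-0.05), Psmd9 (0.02), Psmd1 (-0.02), Psmd6 (-0.00) and Psma2 (0.04), with times pooled Psma1 (-0.00), and with copies summed Psmb5 (-0.04). With a letter left out, ranges that crossed 0 were -0.01 to 0.03 for Psmb7, -0.08 to 0.02 for Psmb10, -0.02 to 0.04 for Psme4, -0.00 to 0.06 for Psmd11, -0.01 to 0.02 for Psmd14, -0.02 to 0.04 for Psma1, -0.02 to 0.00 for Psmd9, -0.01 to 0.14 for Psmd1, -0.03 to 0.00 for Psmc1, -0.08 to 0.04 for Psmd10 and -0.02 to 0.01 for Psma2. Depth limits Psma8 and Psmc3ip, at under 1 CPM on average.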
